A study of Homo sapiens with 12 samples.

Results

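The genes described here are 10 that encode actin or proteins of contractile actin filaments: the actins ACTB, ACTG1 and ACTA2, the tropomyosins TPM1, TPM2 and TPM4, and MYL9, CALD1, CNN1 and TAGLN. They were taken by name from the gene counts of all 12 libraries, with no cut-off on a measured value. Earlier results of these data were known when they were chosen. All 10 were listed among the 15381 genes of the cell libraries, and 9 of the 10 among the 11973 genes of the exosome libraries, where ACTA2 was not listed.

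The RNA came from AC16, an established human line derived from ventricular cardiomyocytes fused with fibroblasts, and from the exosomes (small secreted vesicles) of these cells. The 12 libraries formed 4 groups of 3, with a Con and an Ang group for the cells and another Con and Ang group for the exosomes. The labels spell out neither Con nor Ang and give no agent, dose or time, and the design text states an interest in exosomal small RNAs of hypertrophic cardiomyocytes. Nothing in them ties the replicates of a group to separate cultures, and the p-values therefore rest on a spread between libraries that may be technical. A fused line carries fibroblast as well as cardiomyocyte traits, which limits it as a model of heart muscle. Cell RNA and exosome RNA were extracted and made into libraries with different kits, so compartment and kit cannot be told apart in any comparison of exosomes with cells. In bulk RNA, fewer cells of a type and less RNA per cell cannot be told apart either.

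Actin monomers assemble into filaments, tropomyosins lie along these filaments as coiled dimers, and myosin II pulls on them when its regulatory light chain is phosphorylated. ACTB and ACTG1 are the cytoplasmic actins that nearly every cell makes, while ACTA2, TAGLN, CNN1 and MYL9 are known for high levels in smooth muscle and in activated fibroblasts (myofibroblasts). Many of these genes are transcribed by serum response factor (SRF), which binds a short DNA element called the CArG box and is activated when its cofactors MRTFA and MRTFB are released from actin monomers.

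The actin messages resemble each other closely, which matters because the reads of near-identical copies can be shared out by the counting step. The following 90 bases, coding bases 22 to 111 counted from the A of the ACTB start codon, come from the GENCODE release 29 transcripts on GRCh38. Capitals mark bases that differ from ACTB.
ACTB: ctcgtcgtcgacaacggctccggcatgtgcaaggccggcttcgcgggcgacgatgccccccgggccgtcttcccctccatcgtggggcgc
ACTG1: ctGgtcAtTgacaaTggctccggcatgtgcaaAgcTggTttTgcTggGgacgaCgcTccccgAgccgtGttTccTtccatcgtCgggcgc
ACTA2: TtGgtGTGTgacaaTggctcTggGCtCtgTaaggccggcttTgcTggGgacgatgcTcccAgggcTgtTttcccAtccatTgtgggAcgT
ACTG1 differed from ACTB at 17 of these 90 bases and ACTA2 at 23. Over the 1128 aligned coding bases, ACTG1 was 91.2% identical to ACTB, with 99 differences, and the longest identical run was 59 bases. ACTA2 was 81.9% identical, with 204 differences and a longest run of 32 bases. No stretch of 75 bases was shared between any of the 10 genes. Such stretches were shared with other annotated genes at 1.19% of the positions in ACTB, mostly with the processed pseudogene ACTBP2, at 2.58% in TPM4 and at 0.24% in TPM1, and at none in the other 7 genes.

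Of the 10 genes, 7 had promoters in the RefSeq table used (GRCh38.p14, 250 bases before to 50 after each start), with 14 windows among them. ACTB, TAGLN and MYL9 had none there and were not searched. The CArG box was the one motif searched, as exact matches of 10 bases: CC, then only A or T, then GG. This pattern is the same on both strands. It was found in 2 of these windows, for ACTG1 and TPM4. The whole table held it in 454 of 35116 windows (1.29%) and in 438 of 27305 genes (1.6%). The windows are shown because they carry the element through which this gene class is known to be regulated. Capitals mark the match.
ACTG1, chr17:81512824-81512953, minus strand: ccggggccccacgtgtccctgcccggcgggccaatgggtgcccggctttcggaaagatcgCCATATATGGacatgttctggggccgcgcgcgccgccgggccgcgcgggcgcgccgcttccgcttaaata
TPM4, chr19:16067305-16067434, plus strand: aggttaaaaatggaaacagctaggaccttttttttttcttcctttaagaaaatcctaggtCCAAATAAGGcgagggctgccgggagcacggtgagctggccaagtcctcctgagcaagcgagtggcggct
The match began 94 bases upstream of the start in ACTG1 and 173 bases upstream in TPM4. A match of letters is a description of the sequence, and no binding was measured.

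In GENCODE release 29 coordinates on GRCh38, counted from 1, ACTB (ENSG00000075624) lies on the minus strand at chr7:5527147-5563784, ACTG1 (ENSG00000184009) on the minus strand at chr17:81509971-81523847 and ACTA2 (ENSG00000107796) on the minus strand at chr10:88935074-88991339. TPM1 (ENSG00000140416) lies on the plus strand at chr15:63042632-63071915, TPM2 (ENSG00000198467) on the minus strand at chr9:35681992-35690121 and TPM4 (ENSG00000167460) on the plus strand at chr19:16067021-16103005. MYL9 (ENSG00000101335) at chr20:36541484-36551447, CALD1 (ENSG00000122786) at chr7:134744252-134970728, CNN1 (ENSG00000130176) at chr19:11538717-11550323 and TAGLN (ENSG00000149591) at chr11:117199321-117204782 are all on the plus strand. None of the 10 shared exonic sequence with another gene of its own strand. On the opposite strand, exons of other genes covered 30.11% of the exon length of ACTA2 (FAS and ACTA2-AS1), 21.44% of TPM1, 11.39% of TAGLN (PCSK7) and 9.6% of TPM4. The use of strand in the counting is not given in the sources used here, so reads of these partners cannot be told apart from those of the gene.

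The cell libraries held 9202471 to 11212674 gene reads each. The exosome libraries held 717263 to 745311 (Con) and 535442 to 587783 (Ang), so that a count in exosomes rests on far fewer reads. Levels are given as CPM, the counts-per-million unit, in which reads are scaled to the effective total of their library. Fibroblast and mesenchymal markers were abundant in both compartments: 12 of 12 were listed, and their summed level was 7930 to 9503 CPM in cells and 7967 to 9399 CPM in exosomes. Markers of differentiated smooth muscle other than the 10 genes were 7 of 7 listed in cells, summing to 330.4 to 394.6 CPM, of which SMTN made 325 CPM. In exosomes 6 of these 7 were listed and DES was not, and the sum was 100.1 to 296.5 CPM, below every cell library because SMTN fell to 75.4 CPM. The other members went both ways (chosen for naming after their values were seen): LMOD1, ACTG2 and MYOCD were higher in exosomes (edgeR log2 fold changes of 1.46, 2.62 and 3.18, adjusted p = 0.00126, 5.59e-05 and 0.00454), MYH11 was lower (-2.10, adjusted p = 0.0366), and SYNPO2, at 0.38, did not pass. Exosome reads a library were few: 8 to 36 for LMOD1, 11 to 43 for ACTG2, 0 to 30 for MYOCD and 0 to 4 for MYH11. LMOD1, MYOCD, MYH11 and SYNPO2 overlapped between the compartments. MYOCD was at 0 to 44.1 CPM in exosomes against 1.49 to 2.55 in cells, and LMOD1 at 16.0 to 55.1 against 12.5 to 18.1. Among 12 cardiomyocyte markers, 8 were listed in cells, summing to 78.5 to 92.2 CPM, nearly all of it TTN, while TNNC1, MYL2, MYL7 and MYH6 were not. In exosomes only TTN and ACTN2 of the 12 were listed, and their sum was 12.86 to 22.02 CPM, with TTN at 11.05 CPM against 73.9 in cells. The label AC16 therefore went with strong fibroblast and weak cardiomyocyte marker levels. Endothelial markers (6 of 7 listed) summed to 26.3 to 32.3 CPM and immune markers (4 of 7 listed) to 12.8 to 67.3 CPM in cells, and in exosomes these lists reached at most 44.0 and 184.2 CPM, the latter all from CD68. Blood and serum markers summed to at most 0.4997 CPM in cells, and in exosomes, where 3 hemoglobin genes were listed, to 0 to 41.7 CPM in the Con libraries and 0 in the Ang libraries. Each of these 3 genes had a median of 0 CPM over the exosome libraries, and at most 13 (HBA1), 9 (HBA2) and 7 (HBB) reads in a library.

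The level of each gene was set by dividing CPM by the length of its merged exons in kilobases, which allows genes to be compared with each other. On this scale of CPM per kilobase, ACTB stood first in cells at 1131 ± 24.5 (SD, n = 6) and ACTG1 next at 643 ± 25.5, both clear of all other members. TPM2 (203 ± 49.98) and TPM4 (117 ± 1.95) followed and overlapped in their library values. CALD1 (47.9 ± 2.30) and MYL9 (46.7 ± 2.30) also overlapped, and TPM1 stood below them at 36.7 ± 0.464. The smooth-muscle-type genes were low: TAGLN reached 11.5 ± 0.757, CNN1 4.52 ± 0.464 and ACTA2 0.435 ± 0.194. Cytoplasmic actin thus dominated and smooth muscle actin was near the bottom of what was detected. In exosomes the order was nearly the same, with ACTB at 1878 ± 66.0, ACTG1 at 1100 ± 308 and TPM2 at 947 ± 222, the last pair overlapping. TPM4 (226 ± 16.8), MYL9 (131 ± 18.8), CALD1 (129 ± 12.1, overlapping MYL9), TPM1 (67.3 ± 5.08), TAGLN (39.97 ± 9.91) and CNN1 (12.2 ± 6.44) came after. The order of close neighbours depends on the length used: with the longest transcript in place of merged exons, a choice made after seeing the data, TPM1 stood above CALD1 and MYL9 in cells, and TPM2 above ACTG1 in exosomes.

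**Figure D1:**
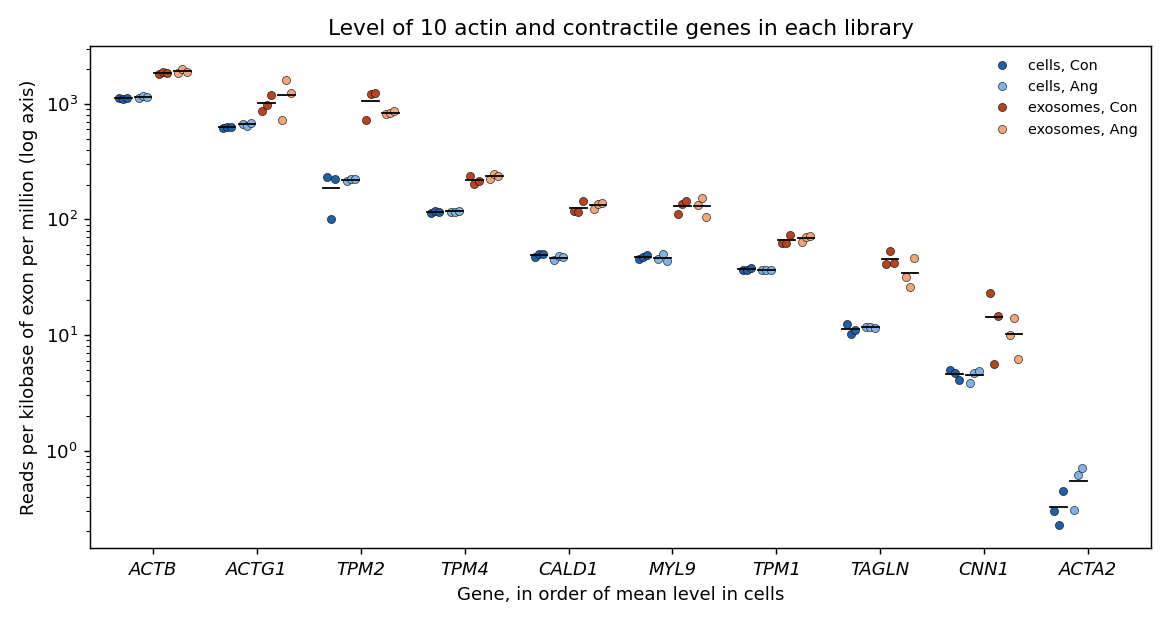
Level of each of the 10 genes in every library, in CPM per kilobase of exon on a log axis; each point is 1 library, coloured by compartment and group, and each bar is a group mean. Exosome points lie above cell points for the 9 genes listed in both, and ACTA2 has points in cells only.

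The comparison of exosomes with cells asks which messages make up a larger share of vesicle RNA than of cell RNA. All 9 genes that could be tested were higher in exosomes, by 1.66-fold to 4.65-fold (edgeR quasi-likelihood test, 6 libraries against 6, adjusted p of 0.05 after Benjamini-Hochberg adjustment over 11811 genes as the threshold). Of all genes tested, 2082 (17.6%) were called higher and 2298 (19.5%) lower, 4380 in either direction (37.1%). The median log2 fold change of the 9 genes was 1.42, against -0.145 over all genes. In each of the 9 genes all 6 exosome libraries lay above all 6 cell libraries, which held for 10.1% of all genes tested. Abundant genes were called higher somewhat more often, 23.7% of those with at least 100 CPM in cells. With library totals as the only scaling, the median over all genes moved to -0.359 and the calls to 1546 higher (13.1%) and 3318 lower (28.1%), and the 9 genes were still all called higher. In reads, the 10 genes made up 0.916% ± 0.0237 (SD, n = 3) of gene reads in Con cells, 0.946% ± 0.0133 in Ang cells, 1.63% ± 0.137 in Con exosomes and 1.64% ± 0.169 in Ang exosomes. The summed fibroblast markers overlapped between the compartments, though the members went both ways (named after their values were seen). Mean CPM was higher in exosomes for VIM (1898 in cells, 3266 in exosomes), whose libraries did not overlap between compartments. It was also higher for FN1 (2219 and 2278), THY1 (173 and 201.6) and S100A4 (1.78 and 2.34), but these overlapped. S100A4 had 0 to 3 reads an exosome library. Mean CPM was lower for the other fibroblast markers, among them COL3A1 (375.5 in cells, 43.3 in exosomes). Of these lower markers, COL1A1, PDGFRB, PDGFRA and FAP overlapped between compartments. The cardiomyocyte sum was lower in exosomes, and of the 7 other smooth muscle markers 3 were higher and 2 lower there, as given above. The part of kit or marker content in these differences was not tested.

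**Figure D2:**
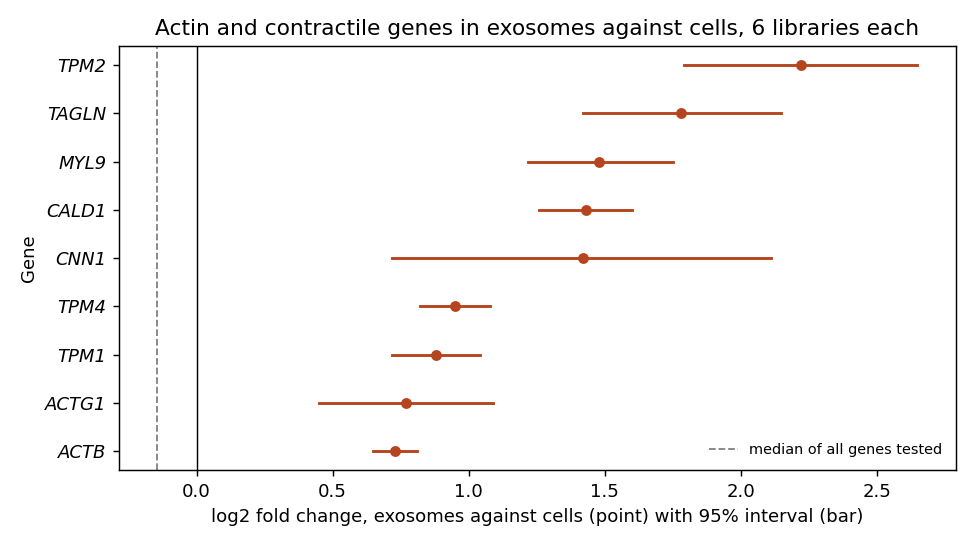
Fitted log2 fold change of each gene in exosomes against cells (points, 6 libraries each) with its 95% interval (bars); the dashed line is the median of all genes tested, -0.145. All 9 intervals lie above 0, from 0.73 for ACTB to 2.22 for TPM2.

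Of the actins, ACTB, the main actin of nonmuscle cells, was read at 3959, 3891 and 3937 CPM in Con cells and at 3938, 4133 and 4020 CPM in Ang cells. In exosomes it was read at 6417, 6615 and 6515 CPM (Con) and 6466, 7058 and 6573 CPM (Ang). The exosome libraries were uniformly high, and ACTB was 1.66-fold higher there (log2 0.73, SE 0.0381, edgeR adjusted p = 2.74e-08), the smallest but most precisely measured rise among the 9. ACTG1, the other cytoplasmic actin, was read at 1830, 1875 and 1896 CPM in Con cells and at 2004, 1923 and 2027 CPM in Ang cells. Its exosome values were scattered, at 2609, 2937 and 3589 CPM (Con) and 2184, 4769 and 3674 CPM (Ang). It was 1.71-fold higher in exosomes (log2 0.77, SE 0.148, edgeR adjusted p = 0.00165). In the Ang libraries alone the log2 fold change of ACTG1 was 0.85, with an edgeR adjusted p of 0.0594 that missed the threshold.

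The balance between the cytoplasmic actins was steady in cells and loose in exosomes. The ratio of ACTG1 to ACTB reads was 0.475 ± 0.0113 (SD, n = 3) in Con cells and 0.493 ± 0.0240 in Ang cells. In exosomes it was 0.467 ± 0.0748 (Con) and 0.524 ± 0.172 (Ang), the latter spanning 0.338 to 0.676. Behind the lowest ratio stood 1125 ACTG1 reads and 3331 ACTB reads in the first Ang exosome library, and behind the highest 2596 and 3842 in the second.

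ACTA2, the smooth muscle actin that marks myofibroblasts, was barely present in the cells. It had 9, 7 and 16 reads in Con cells and 9, 20 and 24 in Ang cells, which is 0.893, 0.671 and 1.33 CPM against 0.917, 1.83 and 2.12 CPM. The groups overlapped. FAS, whose exons overlap ACTA2 on the opposite strand, averaged 5.28 CPM in cells. Over the 6 cell libraries ACTA2 had 85 of 60354322 reads, and the same level would give 5.47 reads in the 3880875 reads of all exosome libraries. Listed genes had at least 7 reads over their 6 libraries, and at the cell level a total of 6 or fewer has a Poisson probability of 0.691, which covers counting error only. The depth of the exosome libraries therefore cannot show whether ACTA2 was lower there than in cells.

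Among the tropomyosins, which stiffen actin filaments and decide which other proteins bind them, TPM2 stood apart. It was read at 753.4, 329.5 and 722 CPM in Con cells and at 700.6, 721.7 and 727.4 CPM in Ang cells. The exosome libraries stood at 2336, 3961 and 4005 CPM (Con) and 2659, 2680 and 2815 CPM (Ang). Every exosome library was several times above every cell library, and the second Con cell library was far below the other 5. TPM2 was 4.65-fold higher in exosomes (log2 2.22, SE 0.198, edgeR adjusted p = 6.82e-06), a log2 fold change above that of 97.6% of genes tested. Without the second Con cell library the log2 fold change was 2.10.

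TPM4, a tropomyosin of nonmuscle filaments, was read at 986.5, 1027 and 1002 CPM in Con cells and at 998, 1001 and 1029 CPM in Ang cells. The exosome values were 2046, 1741 and 1842 CPM (Con) and 1910, 2115 and 2056 CPM (Ang). With little spread on either side, TPM4 was 1.94-fold higher in exosomes (log2 0.95, SE 0.0598, edgeR adjusted p = 1.55e-07). TPM1, whose splice forms serve both muscle and nonmuscle filaments, was read at 469.5, 470.2 and 484.1 CPM in Con cells and at 469.2, 472.6 and 468.1 CPM in Ang cells. In exosomes the values were 803, 805.9 and 944.5 CPM (Con) and 817.2, 902 and 929 CPM (Ang). TPM1 was the least variable of the 10 genes in cells and rose 1.84-fold in exosomes (log2 0.88, SE 0.0743, edgeR adjusted p = 2.53e-06).

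Because TPM2 differed more than TPM4 and TPM1, the mix of tropomyosin messages differed between compartments. Per length, TPM2 made up 60.6%, 39.5% and 59.1% of the reads of the 3 genes in Con cells and 58.6%, 59.3% and 59.0% in Ang cells. In exosomes it made up 70.6%, 82.2% and 81.1% (Con) and 74.2%, 72.4% and 73.6% (Ang). The compartments did not overlap. The share of TPM4 was 29.9% to 46.3% in cells and 13.6% to 23.3% in exosomes, and that of TPM1 was 9.53% to 14.2% in cells and 4.22% to 6.14% in exosomes. With the longest transcript as the length, the TPM2 shares were lower throughout, at 31.7% to 52.2% in cells and 63.2% to 76.6% in exosomes, again without overlap. Gene counts do not separate the splice forms of a tropomyosin gene, so these shares are of genes and not of protein forms.

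**Figure D3:**
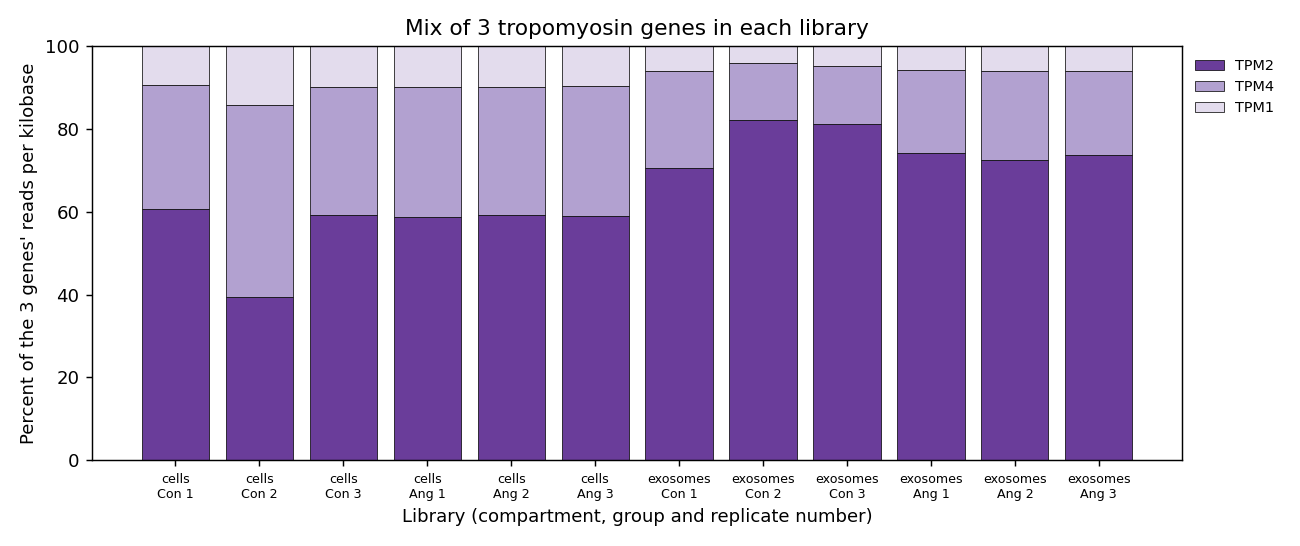
Share of TPM2, TPM4 and TPM1 in their summed reads per kilobase (percent, stacked bars), 1 bar per library. TPM2 makes up 39.5% to 60.6% in the cell libraries and 70.6% to 82.2% in the exosome libraries, and the second Con cell library has the lowest TPM2 share.

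The regulators of filament pulling rose by similar amounts. MYL9, a regulatory light chain of myosin II, was read at 128.6, 132.1 and 138.1 CPM in Con cells and at 129.2, 140.4 and 122.8 CPM in Ang cells. Its exosome values were 315.2, 384.6 and 405.4 CPM (Con) and 378.5, 431.7 and 294.3 CPM (Ang). It was 2.79-fold higher there (log2 1.48, SE 0.121, edgeR adjusted p = 1.87e-06). CALD1 encodes caldesmon, which binds actin and tropomyosin and inhibits the myosin ATPase. Its level was 464.5, 497.2 and 495 CPM in Con cells and 436.3, 469.7 and 464.5 CPM in Ang cells. In exosomes it was 1163, 1129 and 1423 CPM (Con) and 1205, 1339 and 1352 CPM (Ang), which was 2.69-fold higher (log2 1.43, SE 0.0783, edgeR adjusted p = 4.42e-08).

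TAGLN and CNN1, both early smooth muscle markers that bind actin filaments, were low in cells and variable in exosomes. TAGLN (transgelin) was read at 49.1, 40.3 and 43.5 CPM in Con cells and at 45.9, 46.1 and 45.3 CPM in Ang cells. The exosome libraries gave 159.7, 208.4 and 163.7 CPM (Con) and 124.2, 101.0 and 182.2 CPM (Ang), from 55 to 142 reads a library. TAGLN was 3.44-fold higher in exosomes (log2 1.78, SE 0.168, edgeR adjusted p = 6.11e-06), second to TPM2 among the 9. CNN1 (calponin), an inhibitor of the actomyosin ATPase, was read at 14.3, 13.5 and 11.8 CPM in Con cells and at 11, 13.5 and 14.2 CPM in Ang cells. Its exosome values of 66.2, 16.1 and 42.0 CPM (Con) and 29.1, 40.4 and 18.0 CPM (Ang) rest on 9 to 46 reads a library, and the lowest lies just above the highest cell library. CNN1 was 2.67-fold higher in exosomes (log2 1.42, 95% interval 0.72 to 2.11, edgeR adjusted p = 0.00417). In the Ang libraries alone its log2 fold change was 1.19, with an edgeR adjusted p of 0.0772 that missed the threshold. In the Con libraries alone it was 1.66, with an edgeR adjusted p of 0.0499, only just under the threshold.

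The other genes of the actin system did not all move this way. Of 8 further actin, tropomyosin, calponin and transgelin genes, 5 could be tested, of which 4 were higher in exosomes and 0 lower, with a median log2 fold change of 0.76. TAGLN2, a transgelin of nonmuscle cells, was 2.10-fold higher (edgeR adjusted p = 5.19e-05), from 164 ± 5.998 CPM (SD, n = 6) in cells to 345 ± 68.0 in exosomes. TPM3, a further tropomyosin, was 1.69-fold higher (edgeR adjusted p = 6.92e-06), from 719 ± 30.4 to 1221 ± 133 CPM. The striated muscle actins ACTA1 and ACTC1 were listed in cells and not in exosomes, as was TAGLN3.

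Myosin II chains and their regulators were split: of 25 genes, 22 were tested, 6 were higher in exosomes, 7 lower and 9 did not pass, with a median log2 fold change of 0.24. RHOB, a small GTPase that acts on actin filaments, was 5.09-fold higher (edgeR adjusted p = 2.11e-06), from 21.4 ± 1.99 to 111 ± 40.8 CPM. PPP1R14B, an inhibitor of protein phosphatase 1, was 4.26-fold higher (edgeR adjusted p = 0.000808). ROCK2, a kinase that raises light chain phosphorylation, had a log2 fold change of -0.96 (edgeR adjusted p = 3.59e-05), from 255 ± 7.42 to 131 ± 14.7 CPM. PPP1R12A, the targeting subunit of myosin phosphatase, had one of -0.76 (edgeR adjusted p = 0.0231). Without 1 library at a time the number of these genes called lower was 4 to 7, with 4 when the second Con cell, the first Ang cell or the third Con exosome library was left out.

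SRF pathway factors and focal adhesion targets were likewise divided, with 8 of 29 tested genes higher, 8 lower and 13 not passing, and a median log2 fold change of 0.22. With library totals only, 5 were higher and 9 lower. FHL2, a LIM-domain protein of focal adhesions, was 3.19-fold higher (edgeR adjusted p = 7.08e-06), and SMAD3, a mediator of TGF-beta signalling, 1.67-fold higher (edgeR adjusted p = 0.00012). SMTN (smoothelin), a protein of smooth muscle filaments, had a log2 fold change of -2.20 (edgeR adjusted p = 8.33e-05), from 325 ± 26.1 to 75.4 ± 49.0 CPM. CCN1, a matrix-associated protein whose gene responds to SRF and YAP signalling, had a log2 fold change of -1.70 (edgeR adjusted p = 5.41e-07), from 907 ± 27.9 to 280 ± 54.1 CPM. SMTN thus moved opposite to TAGLN, CNN1 and MYL9, while LMOD1 and MYOCD, of this list, moved with them. The LMOD1 value rests on 8 to 36 reads an exosome library and the MYOCD value on 0 to 30. Both genes overlapped between the compartments in CPM.

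Actin turnover and crosslinking genes were 12 higher, 3 lower and 23 not passing of 38 tested, with a median log2 fold change of 0.15. With library totals only, 10 were higher and 7 lower, and without the third Ang exosome library 5 were lower. FLNC (filamin C), an actin crosslinker of muscle, was 2.28-fold higher (edgeR adjusted p = 3.01e-06), and TMSB10, a thymosin that binds actin monomers, 2.18-fold higher (edgeR adjusted p = 3.78e-08). ADD3, an adducin of the membrane skeleton, had a log2 fold change of -0.63 (edgeR adjusted p = 0.015). Actin nucleation genes were 7 higher, 5 lower and 13 not passing of 25, with a median of 0.06. ARPC5L and ARPC3, subunits of the Arp2/3 complex that starts branched filaments, were 4.17-fold and 2.84-fold higher (edgeR adjusted p = 3.79e-06 and 0.0269), ARPC3 with a wide spread in cells (118 ± 94.4 CPM, against 337 ± 24.2 in exosomes). CYFIP1, a subunit of the WAVE regulatory complex that activates Arp2/3, had a log2 fold change of -1.07 (edgeR adjusted p = 6.87e-05), and the formin DIAPH3 of -0.86 (edgeR adjusted p = 0.00153). The medians of all 5 lists were above the -0.145 of all genes and below the 1.42 of the 9 genes.

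**Figure D4:**
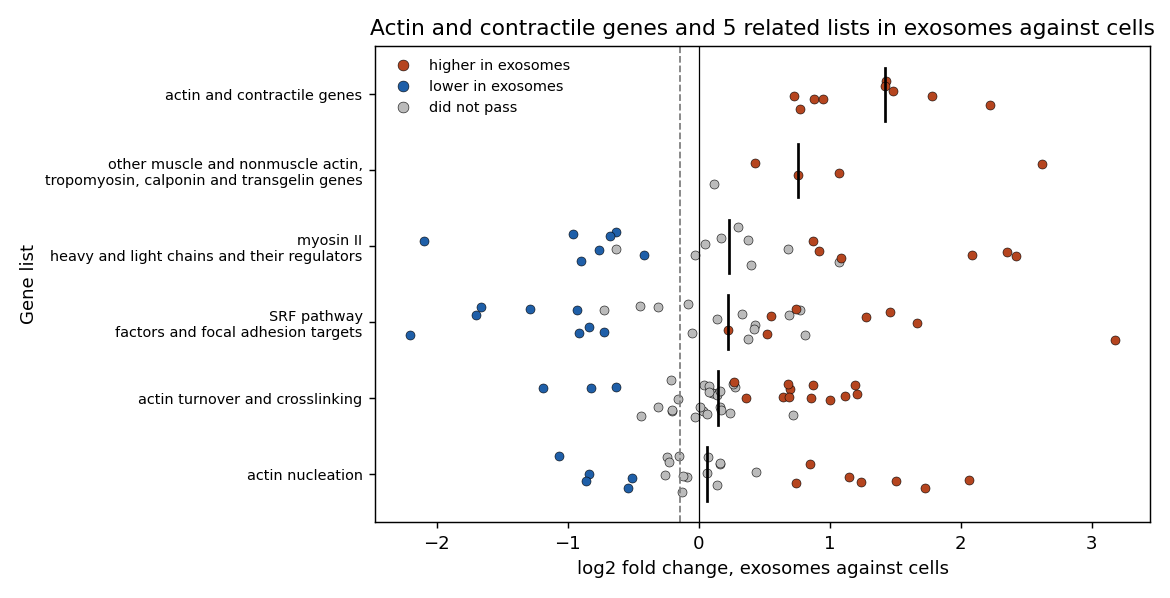
Fitted log2 fold change in exosomes against cells for the 9 tested actin and contractile genes and for 5 related gene lists; each point is a gene, coloured by its call, short bars are list medians and the dashed line is the median of all genes, -0.145. The 9 genes are all called higher, and 4 of the 5 lists hold genes called in both directions.

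The comparison of Ang with Con in cells asks whether the Ang label went with a change in the contractile genes of the cells. None of the 10 genes passed (edgeR, 3 libraries against 3, smallest adjusted p 0.814), against 0 of the 13331 genes tested (0%). At an unadjusted p under 0.05 there were 816 genes (6.12%), none of them among the 10, and DESeq2 called 60 genes, also none of the 10. The intervals were narrow for the abundant genes. The log2 fold change of ACTB was 0.03 (95% interval -0.04 to 0.10), that of TPM1 -0.02 (-0.11 to 0.06), that of TPM4 -0.0023 (-0.09 to 0.08) and that of CALD1 -0.10 (-0.22 to 0.03). ACTG1 was the member whose groups did not overlap, with all 3 Ang libraries above all 3 Con libraries. Its log2 fold change was 0.08 (-0.0022 to 0.16), and groups without overlap occurred in 14.2% of all genes tested. For MYL9 the value was -0.03 (-0.21 to 0.14), for TAGLN 0.04 (-0.18 to 0.26) and for CNN1 -0.04 (-0.39 to 0.31). TPM2, at 0.25 (-0.53 to 1.02), turned to -0.05 without the second Con library. ACTA2, at 0.73, had an interval of -0.30 to 1.76 on its 7 to 24 reads a library, so these counts allow a fall as well as a rise beyond the fitted value.

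The same comparison in exosomes likewise gave 0 of 9 genes called, against 1 of the 8327 genes tested (0.012%) and 316 (3.79%) at an unadjusted p under 0.05, with edgeR. DESeq2 called 16 genes, none of the 9. In all 9 genes the groups overlapped, while 10.8% of all genes tested had groups without overlap. The Ang exosome libraries were all shallower than the Con ones, as given above. The log2 fold change was 0.05 for ACTB (95% interval -0.07 to 0.16), 0.12 for TPM4 (-0.09 to 0.32), 0.06 for TPM1 (-0.22 to 0.34) and 0.07 for CALD1 (-0.19 to 0.34). For MYL9 it was 0.01 (-0.44 to 0.45), for ACTG1 0.22 (-0.56 to 1.01) and for TPM2 -0.33 (-0.82 to 0.16). TAGLN, at -0.38 (-1.03 to 0.28), and CNN1, at -0.50 (-1.83 to 0.83), had wide intervals at their low read counts. The adjusted p was 0.999 for each of the 9 genes in edgeR, which does not show that the groups were alike.

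The Ang against Con change was also compared between exosomes and cells directly. None of the 9 genes was called (edgeR, smallest adjusted p 0.754 for TPM2), against 3 of 11811 genes (0.0254%). The difference, exosomes minus cells, was positive in 1 of those 3 (0.00847% of genes tested) and negative in 2 (0.0169%). At an unadjusted p under 0.05 in edgeR there were 971 genes (8.22%), and DESeq2 called 368, none of the 9. The difference of log2 fold changes, exosomes minus cells, was -0.59 for TPM2 (95% interval -1.42 to 0.24), -0.43 for TAGLN (-1.14 to 0.28) and 0.0033 for ACTB (-0.16 to 0.17). No gene of the 5 related lists passed in cells, in exosomes or in this difference.

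**Figure D5:**
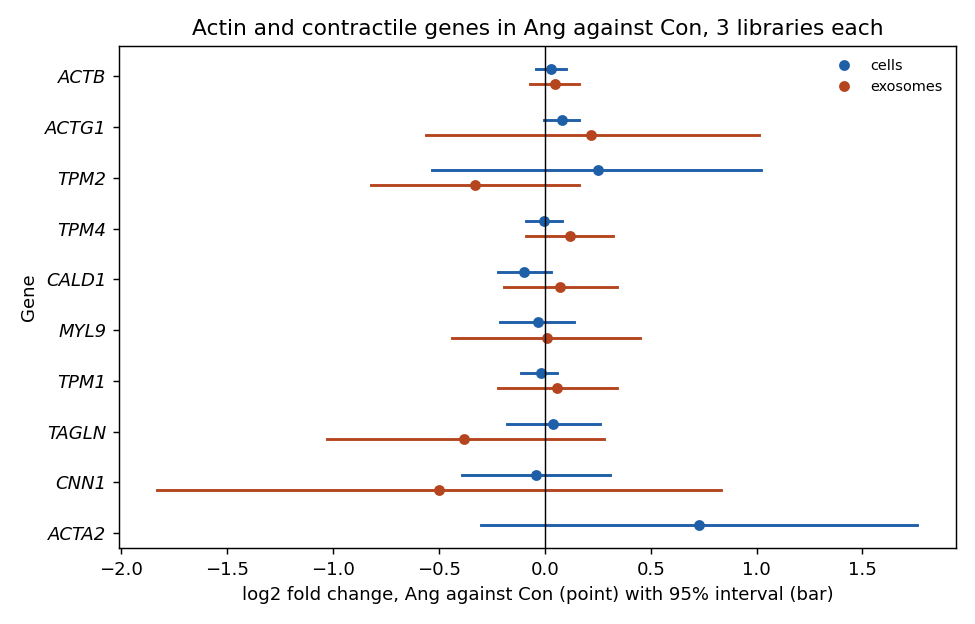
Fitted log2 fold change of each gene in Ang against Con, in cells and in exosomes (points, 3 libraries a group), with 95% intervals (bars). Every interval includes 0; those of ACTB, ACTG1, TPM4 and TPM1 in cells are the tightest and those of CNN1 in exosomes and ACTA2 in cells the widest.

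Across the 12 libraries the levels of the 9 genes went together, a measure that includes the difference between the compartments and their kits. Pearson's r of log2 CPM was 0.622 to 0.998 over the 36 pairs, with a median of 0.931, and the points share library, depth and kit within a compartment. CNN1 (r = 0.805) and ACTG1 (r = 0.851) were the least like the mean of the 9. The genes outside the set most like that mean were NUPR1, a stress-induced nuclear protein (r = 0.996), MFAP1, a spliceosome protein (0.996), and FTH1, the ferritin heavy chain (0.995), among 5898 genes. Within the 6 cell libraries alone, r over the 45 pairs of the 10 genes ran from -0.819 to 0.807 with a median of -0.09. There the most similar of 6658 genes to the mean of the 10 were the taurine transporter SLC6A6 (r = 0.986), TRIM4 (0.984) and SBDS (0.978). The r of the members with that mean ran from -0.412 for TPM4 to 0.887 for ACTA2, with TPM2 next highest at 0.847. ACTA2 had 7 to 24 reads a cell library, and TPM2 was far lower in the second Con cell library, so that mean does not stand for all 10 genes. These r are descriptions over 12 and 6 libraries and were not tested.

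Circular RNAs, closed by back-splicing, were listed for 4 of these genes, at low counts. Assigned by position, 13 of the 5179 circular RNAs of cells lay in the 10 genes, with 72 of 43450 junction reads, and 4 of the 939 in exosomes, with 25 of 6768. TPM4 gave 5 in cells (29 reads) and 2 in exosomes (21 reads), TPM2 gave 3 (26 reads) and 1 (2 reads), CALD1 4 (12 reads) and 1 (2 reads), and TPM1 gave 1 in cells (5 reads). Both circles of TPM4 found in exosomes were also listed in cells, and both begin and end at annotated exon edges. That at chr19:16081913-16101409 had 4 and 5 junction reads in the first and second Con cell libraries and 6 reads in each of 2 exosome libraries, the third Con and the second Ang. That at chr19:16081913-16086540 had 5, 2 and 2 reads in 3 cell libraries and 9 reads in the second Ang exosome library. The most read in cells was a TPM2 circle at chr9:35684287-35684807, with 12 and 10 reads in the first and second Ang cell libraries and 0 in the others. Only the second coordinate of this TPM2 circle is at an annotated exon edge. Nonzero junction counts began at 2 reads, so a 0 also covers 1 read, and no difference between groups was tested in these counts.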

How the data were processed

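Gene reads were counted in 12 AC16 libraries, 3 per group, with groups taken from the sample titles. The authors deposited whole-number counts for each Ensembl gene and each circular RNA junction, per the file headers. GRCh38, HISAT2 and StringTie are named in the submitters' processing notes, with neither version nor role. How reads were counted, whether by strand, on which annotation release, at what read length and with which circular RNA caller is not given in the sources used here. Per the labels' protocols, a VAHTS Universal kit served for the cell libraries and a SMARTer Stranded Total RNA kit for the exosome libraries. Libraries of a group differed by more than sampling noise (in cells 24.2 to 25.8 chi-square per degree of freedom, in exosomes 7.61 to 8.1), and each was counted once.

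Low genes were removed by filterByExpr (at least 10 reads in enough libraries, 15 in total). The remaining counts were fitted in edgeR 4.0.16 (R 4.3.3, limma 3.58.1) with trimmed mean of M-values scaling and a two-sided quasi-likelihood test. Benjamini-Hochberg adjustment ran over every gene tested, with 0.05 as the threshold. Ang was compared with Con within the 6 libraries of each compartment, and exosomes with cells, and the difference of the changes, over the 12 libraries for genes that both compartments list. CPM values carry the scaling. The script was tested on simulated data. Symbols were matched for 15365 of 15381 genes in cells and 11963 of 11973 in exosomes.

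The 10 genes and the lists were chosen with earlier results of these data known. Each of the 10 genes is described, and from each list are named up to 2 called genes in each direction, those of largest fold whose libraries did not overlap between compartments and whose mean CPM was at or above the median; 1 gene that met this rule is not reported here. Alternatives were other scalings, no filter on low counts, DESeq2 1.42.0, a replicate block, leaving out each library, Con or Ang libraries alone and a fit to all 12 libraries. Small RNAs were not analysed here.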

Additional observations from a re-analysis of the deposited data

Results flagged for a closer look

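Among 19 sets of 6 libraries (each of the 10 genes in cells and each of the 9 in exosomes), 3 had a highest or lowest library set apart from the other 5 by more than Dixon's limit, which chance passes in about 1 of 20 sets. TPM2 was at 329.5 CPM in the second Con cell library, where the nearest of the other 5 was at 700.6 CPM, a gap of 0.876 of the whole range. That value was 46.0% of the median of the others. In the same library 224 genes, of 11570 whose median count was 40 or more, were as low or lower against the other libraries, and 207 to 245 genes were so in each of the other 5. TPM1 was at 484.1 CPM in the third Con cell library, where the nearest was at 472.6 CPM, a gap of 0.719 of a narrow range. ACTB was at 7058 CPM in the second Ang exosome library, where the nearest was at 6615 CPM, a gap of 0.692 of the range.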

How the results depend on the processing

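Over 9 genes and 19 alternatives in exosomes against cells, 169 of the refitted values kept their call and direction and 2 missed the threshold, ACTG1 and CNN1 in the Ang libraries alone. Their log2 ranges over the alternatives were 0.52 to 0.77 for ACTB, 0.56 to 0.89 for ACTG1, 1.93 to 2.52 for TPM2, 0.74 to 1.02 for TPM4, 0.66 to 0.92 for TPM1, 1.27 to 1.54 for MYL9, 1.21 to 1.52 for CALD1, 1.57 to 2.01 for TAGLN and 1.15 to 1.66 for CNN1. CNN1 passed only narrowly in the Con libraries alone (edgeR adjusted p = 0.0499). The number of all genes called was 2395 in the Con libraries alone and 2126 in the Ang libraries alone, with fewer libraries in each fit. In the Con libraries alone 4 myosin II genes were lower, and 4 nucleation genes were higher and 2 lower. In the Ang libraries alone 6 turnover, 3 nucleation and 4 SRF pathway genes were higher, and 2 myosin II genes and 1 turnover gene lower.

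For Ang against Con no gene of the 10 was called under any alternative run, and the values near 0 changed sign. In cells, TPM4 was 0.0021 with library totals and 0.01 in the fit to all 12 libraries. In exosomes, MYL9 was -0.00011 with library totals, -0.00029 without the low-count filter and -0.00028 in the fit to all 12. Leaving out 1 library gave, in cells, TAGLN -0.02 to 0.12, CNN1 -0.12 to 0.06, TPM2 -0.05 to 0.44, TPM4 -0.02 to 0.02 and MYL9 -0.09 to 0.01. In exosomes it gave ACTG1 -0.05 to 0.47, CNN1 -0.89 to 0.01, MYL9 -0.13 to 0.14 and CALD1 -0.0033 to 0.19. For the difference of the changes it gave ACTB -0.04 to 0.03, ACTG1 -0.15 to 0.38, CNN1 -0.86 to 0.04 and MYL9 -0.11 to 0.16. Genes called were 60 in cells with DESeq2. In exosomes they were 3 without the filter, 16 with DESeq2 and 22 in the fit to all 12 libraries, and for the difference 368 with DESeq2. Leaving out 1 library gave 0 to 3 in cells (3 without the third Con library), 1 to 4 in exosomes (4 without the first Ang library) and 1 to 17 for the difference (17 without the first Ang exosome library). The cause of these shifts was not tested.

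No pairing by replicate number was seen. Deviations of same-numbered Con and Ang libraries correlated at -0.032, -0.011 and -0.018 in cells and at -0.011, -0.017 and -0.001 in exosomes. Those of same-numbered cell and exosome libraries correlated at -0.001 to 0.024 over both groups. Such weak correlations do not show that the samples were unpaired. With the replicate number as a block, 4216 genes were called in exosomes against cells, 0 in cells, 0 in exosomes and 1 for the difference, all 9 genes remained called higher in exosomes, and MYL9 in exosomes was -0.003 in Ang against Con.

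Depth limits CNN1, TAGLN and ACTA2, whose lowest libraries held 9, 55 and 7 reads where listed. It also limits LMOD1, ACTG2, MYOCD and MYH11, whose lowest exosome libraries held 8, 11, 0 and 0 reads.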
